A study of Homo sapiens with 2 samples.

Results

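The 8 genes described here encode G protein coupled receptors through which platelets sense soluble agonists and inhibitors: P2RY1, P2RY12, F2R, F2RL3, TBXA2R, ADRA2A, PTGIR and ADORA2A. They were chosen by name, and their probes are those that the array annotation assigns to these symbols with a distance to the transcription start. All 8 were found among 17280 genes named on the arrays. The data come from Meg-01, a human megakaryocytic leukemia line grown without drug or shRNA, in which chromatin bound by the transcription factor GATA1 was mapped on promoter microarrays (ChIP-on-chip). The immunoprecipitation (IP) used the C-20 antibody to the C-terminus of GATA1, and the control was a pull down with normal goat IgG from the same soluble chromatin. IP DNA carried Cy5 and IgG DNA carried Cy3, and they were hybridized together to 2 arrays that hold different probes, chIP1 and chIP2. The arrays are therefore not replicates: each probe has 1 hybridization, with no dye swap, and no test was possible. The arrays measure no transcript, so the identity of the cells could not be checked against marker genes.

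Platelets are activated when ADP, thrombin, thromboxane A2 and epinephrine engage receptors coupled to Gq, Gi or G12/13, which raise calcium, lower cyclic AMP and drive shape change. Prostacyclin and adenosine act in the opposite sense through receptors coupled to Gs, which raise cyclic AMP. The receptors are made in the megakaryocyte, the parent cell of the platelet, where GATA1 is a lineage transcription factor that recognizes GATA sequences in DNA.

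Each value below is a log2 ratio of processed intensities, IP over IgG or log2(IP/IgG), with the median of each array at 0, so that 1 is 2-fold toward the IP and -1 is 2-fold toward the IgG. Errors are those of the scanner software within 1 array and leave out any spread between cultures or pull downs. Probes were read in windows of 3 adjacent probes, and windows whose mean reached 1 are called IP-side and those at -1 or lower IgG-side. Positions are in bp from the annotated start, negative upstream. Of 325 probes of the 8 genes, 324 were kept, of which 211 were annotated as promoter, 112 as inside the gene and 1 as downstream. They formed 304 windows. P2RY1, P2RY12 and F2R were on chIP1 and the other 5 genes on chIP2. The 480 spots of a control probe varied with an SD of 0.05 (chIP1) or 0.04 (chIP2), whereas the SD of all kept probes was 0.97. The median scanner error of a probe was 0.22. Unprocessed signals were close to those of negative control spots over much of the arrays, with median IP signals of 543 and 544 against 342 and 340 for the negative controls.

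An IP-side window was present at 6 of the 8 receptor genes, namely ADORA2A, F2RL3, P2RY1, P2RY12, TBXA2R and ADRA2A. Over all 17054 genes with windows, 57.1% had an IP-side window, and among the 9310 genes with as many windows as the receptor genes (22 to 71) this share was 67.5%. The 6 of 8 therefore lies near the background share. An IgG-side window, the background read the same way, was also present at 6 of 8 genes, against 52.9% of all genes and 65.6% of those with as many windows. Windows on both sides were present at 5 of 8 genes, against 31.3% of all genes. That share was not taken among genes with as many windows, where each side was called more often. PTGIR had neither, as did 21.3% of all genes. Of the 304 windows of the receptor genes, 29 (9.54%) were IP-side and 17 (5.59%) IgG-side, whereas over 415403 windows the shares were 7.62% and 9.65%. Windows that overlap share probes and are not independent.

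**Figure D1:**
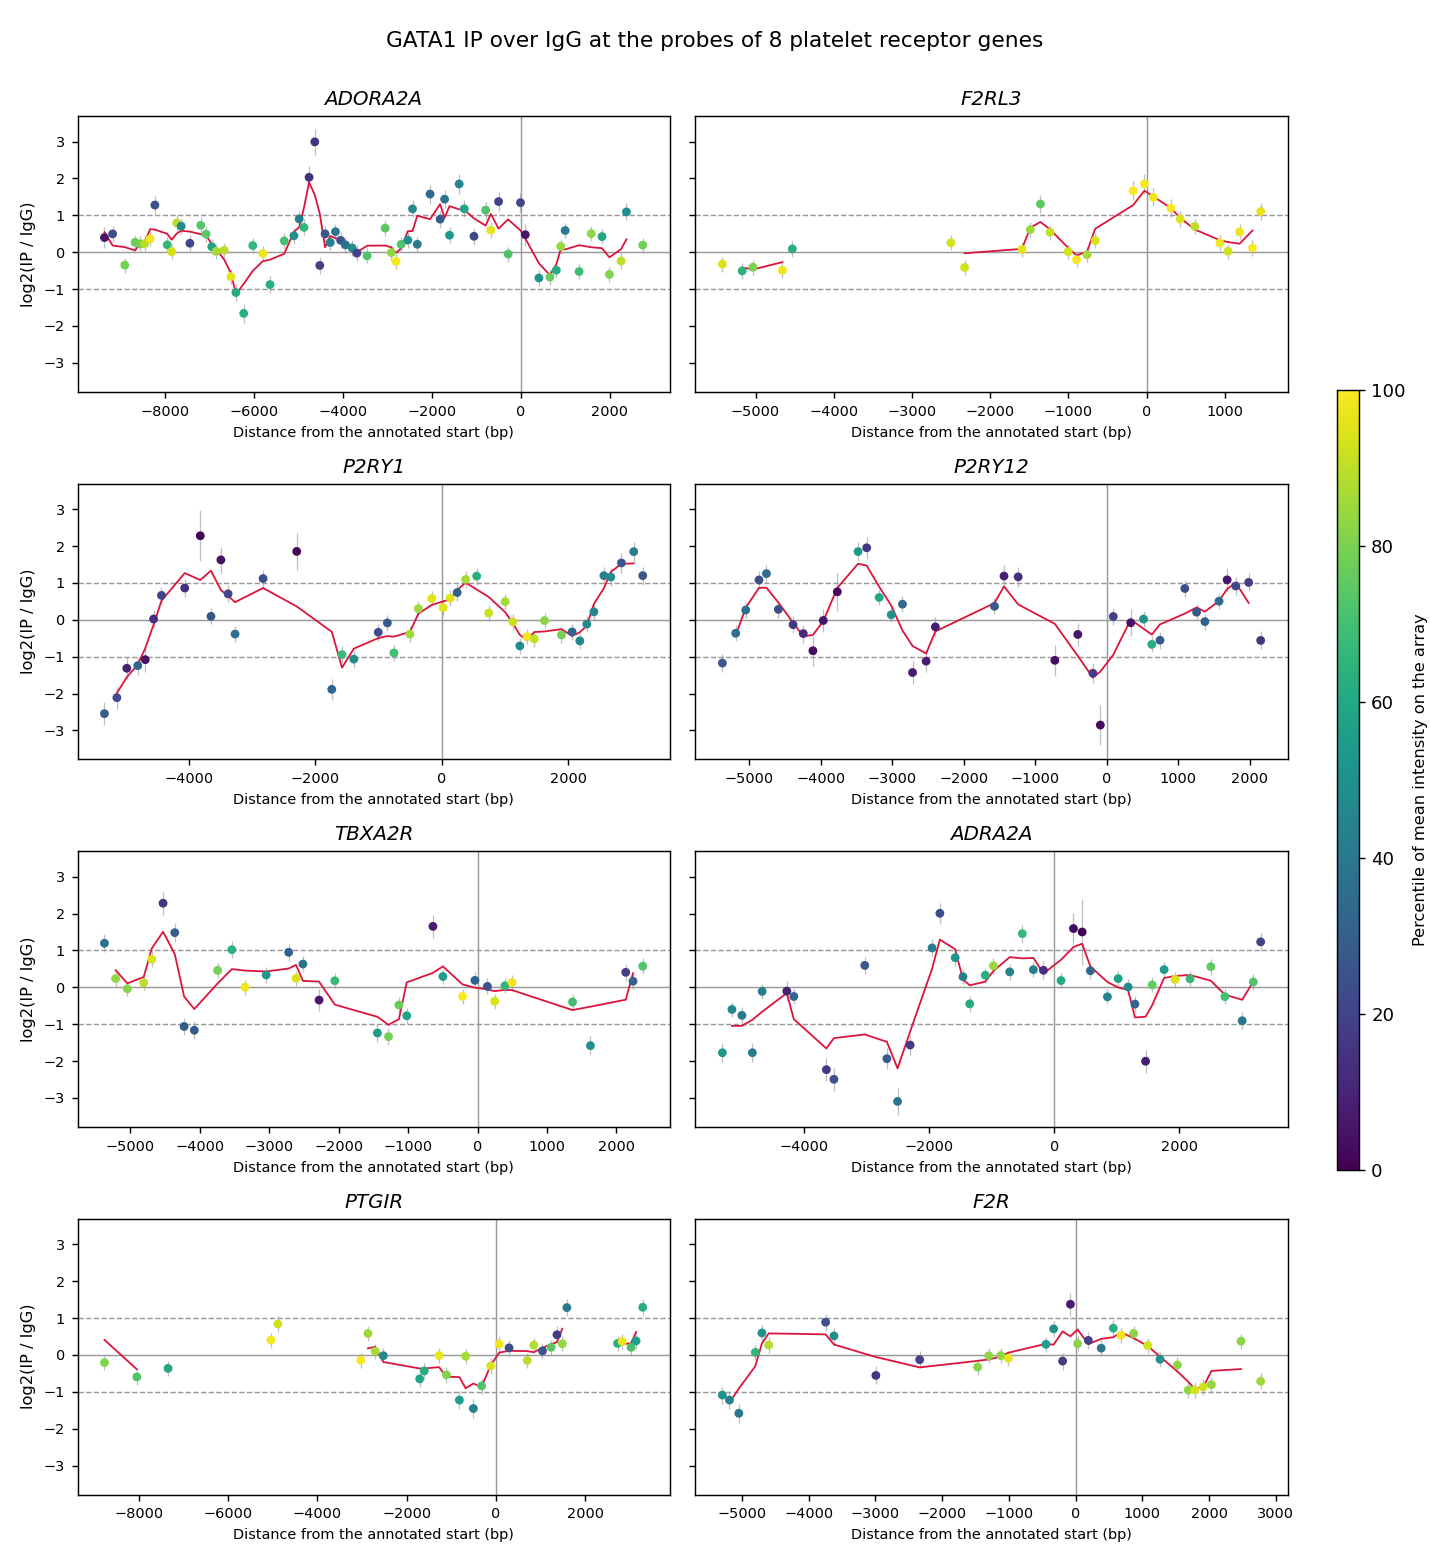
log2(IP/IgG) along the 8 receptor genes against the distance from the annotated start in bp. Points are probes with the scanner error, colored by the percentile of their mean intensity on the array, red lines join window means, and dashed lines mark 1 and -1. The F2RL3 peak of 1.67 lies at the start on bright probes, whereas the ADORA2A peak of 1.90 lies near -4767 bp on dim ones. The highest PTGIR window is not drawn because its center probe is not annotated to PTGIR.

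Over all genes the median highest window mean was 1.09, and over those with as many windows as the receptor genes it was 1.22. The highest window means of the receptor genes ranged from 0.69 to 1.90 with a median of 1.51. In order they were 1.90 ± 0.17 at ADORA2A, 1.67 ± 0.15 at F2RL3, 1.53 ± 0.15 at P2RY1, 1.52 ± 0.22 at P2RY12, 1.51 ± 0.15 at TBXA2R, 1.29 ± 0.14 at ADRA2A, 0.80 ± 0.14 at PTGIR and 0.69 ± 0.15 at F2R. Each neighboring pair in this order differed by less than 2 scanner errors of the difference, except ADRA2A over PTGIR, which differed by 0.49 with an error of 0.20. None of the 8 stood at the far end of the arrays. The highest, ADORA2A, was at percentile 90.0 of the genes of its array, F2RL3 at 83.9, and F2R, the lowest, at 18.5. Close to the start the picture was narrower: only F2RL3, ADRA2A and P2RY1 had an IP-side window centered within 500 bp of the start, 3 of 8 against 24.6% of 16445 genes. An IgG-side window there was found at P2RY12 alone, 1 of 8 against 9.33%.

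**Figure D2:**
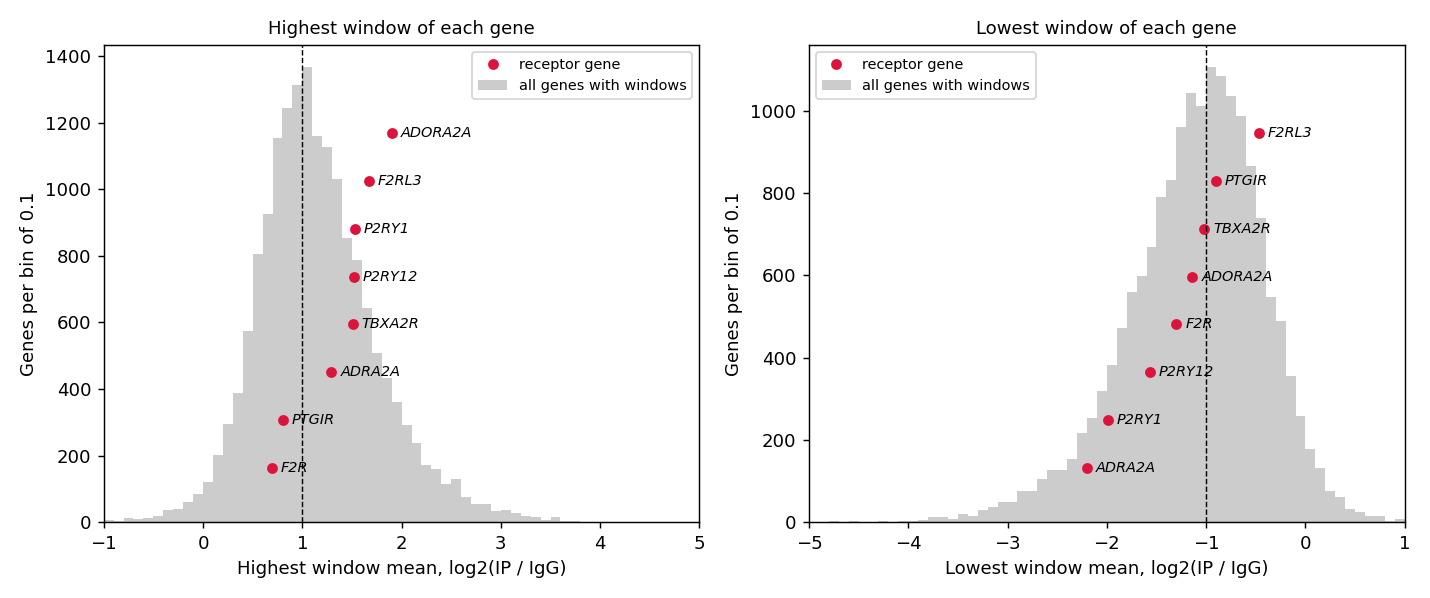
Highest (left) and lowest (right) window mean of each gene, log2(IP/IgG), as the number of genes per bin of 0.1. Gray bars are all genes with windows, red points are the 8 receptor genes placed at arbitrary heights for legibility, and the dashed lines are at 1 and -1. The receptor genes run from 0.69 to 1.90 on the left and from -2.20 to -0.47 on the right, inside the spread of all genes.

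Of the thrombin receptors, F2RL3, which encodes PAR4, had the highest mean ratio at the start of the 8 genes, and F2R, which encodes PAR1, had no window past the IP threshold. At F2RL3 the 3 probes of the highest window, at -173, -28 and 86 bp, read 1.66, 1.85 and 1.49. Their processed IP intensities were 24246, 15488 and 11689 and their IgG intensities 7616, 4274 and 4152. In both channels each was above every probe at the peaks of the other receptors. The brightest of those, at TBXA2R, had an IP intensity of 5685 and an IgG intensity of 3343. The window lay at chr19:16860630-16860933 in the coordinates of the array design, whose genome build is not given in the sources used here, and its mean intensity was at percentile 99.9 of the array. Going downstream the ratio declined to 1.20 at 310 bp and 0.90 at 429 bp. The 4 IP-side windows of F2RL3 formed a single stretch centered from -173 to 310 bp, and the gene had no IgG-side window, its lowest mean being -0.47. The mean of its 5 probes within 500 bp of the start was 1.42, at percentile 98.6 of the genes of the array. All 26 F2RL3 probes are also annotated to CPAMD8 and 17 of them to SIN3B, the genes on either side, but no F2RL3 probe lay nearer than 54184 bp to the start of SIN3B or 136186 bp to that of CPAMD8.

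The highest window of F2R, at 29 bp, read 1.37, 0.31 and 0.39 over its 3 probes, so that the probe at -78 bp, with an IP intensity of 287 and an IgG intensity of 111, set most of the mean of 0.69. The 7 probes within 500 bp of the start averaged 0.44, at percentile 60.4 of the array. Upstream, at -5187 bp, a window of -1.09, -1.22 and -1.58 gave F2R an IgG-side call with a mean of -1.30. Of the 33 F2R probes, 18 are also annotated to IQGAP2, a scaffold protein gene whose start lies at least 307349 bp away. The other protease activated receptor genes of the same chromosome, F2RL1 (PAR2) and F2RL2 (PAR3), had highest windows of 1.32 at 638 bp and 0.88 at -2492 bp and lowest windows of -1.29 and -1.68.

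The ADP receptors share a chromosome and a ligand but differed at their starts. P2RY1, the Gq coupled receptor that starts shape change, had IP-side windows in 3 places: centered from -4064 to -3649 bp, at 378 bp and from 2673 to 3035 bp. The last of these, chr3:154038245-154038641, held its highest window, where the 3 probes read 1.54, 1.85 and 1.20 with IP intensities of 791, 1340 and 691 against IgG intensities of 272, 373 and 302. The unprocessed IgG signals there were 332 to 343, near the 303 of the negative controls. The window at 378 bp barely passed, with a mean of 1.01 ± 0.13, on brighter probes (intensity percentile 62.5). The upstream stretch peaked at 1.33 on probes at intensity percentile 3.38, and further upstream the ratio turned, to -1.99 ± 0.17 at -5137 bp, where the probes read -2.55, -2.11 and -1.31. Over the 6 probes within 500 bp of the start the mean was 0.61, at percentile 72.8.

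P2RY12, the Gi coupled receptor that sustains aggregation and is the target of clopidogrel, had its highest window at -3479 bp (chr3:152588572-152589041), with probe values of 1.95, 1.85 and 0.76. The IP intensities were 602, 1823 and 102 against IgG intensities of 156, 507 and 60.6. At the start the ratio leaned to the IgG. Probes at -406, -195 and -91 bp read -0.40, -1.45 and -2.86, a mean of -1.57 ± 0.23, but their IP intensities were only 129, 196 and 27.9 and the window was at intensity percentile 3.55. The probes at 90 and 334 bp read 0.09 and -0.08. The 5 probes within 500 bp of the start averaged -0.94, at percentile 3.52 of the array and the lowest of the 8 receptors. P2RY12 was the dimmest of the loci, with a median probe intensity at percentile 18.9, and no window of it reached the median window intensity of its array. Whether the dim probes set its low ratio at the start was not tested. All 39 of its probes are also annotated to MED12L, a Mediator subunit gene in which P2RY12 lies. Its neighbors P2RY13, another ADP receptor, and P2RY14, a receptor for UDP-glucose, had probes 48147 and 98755 bp away. P2RY13 read 1.76 at 1876 bp and -1.88 at -19 bp, the latter on probes at intensity percentile 3.85, and P2RY14 reached 1.64 at -2169 bp.

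To show the DNA at the starts with the highest and the lowest mean ratio, the promoter sequences of F2RL3 and P2RY12 were taken from RefSeq on GRCh38.p14, each running from 250 bases before to 50 bases after an annotated start. P2RY12 has 2 starts in that annotation, 43931 bp apart. The array annotation also gives distances to 2 P2RY12 transcripts, whose starts lie 43959 bp apart, a difference of 28 bp. That spacing alone does not tell which start was used. Counted from the start of MED12L, the upstream RefSeq start differed from the array start by 1220 bp and the downstream one by -42711 bp. The start used for P2RY12 here was therefore taken as the upstream one. No probe annotated to the other transcript lay nearer than 6398 bp to the downstream start. For F2RL3 the RefSeq start lay at -7 bp from the array start, counted from that of SIN3B. Capitals mark the GATA motifs AGATAA or AGATAG or TGATAA or TGATAG, searched on both strands with overlapping matches counted once, so that TTATCA marks the third of them on the opposite strand.
F2RL3 promoter, chr19:16888749-16889048, plus strand: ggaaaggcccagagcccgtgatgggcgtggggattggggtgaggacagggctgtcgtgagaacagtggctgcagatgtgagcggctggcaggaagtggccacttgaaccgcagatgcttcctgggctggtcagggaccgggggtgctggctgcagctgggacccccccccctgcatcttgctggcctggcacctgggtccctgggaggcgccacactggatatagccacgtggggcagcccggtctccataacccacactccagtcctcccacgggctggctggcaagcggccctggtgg
P2RY12 upstream promoter, chr3:151384704-151385003, minus strand: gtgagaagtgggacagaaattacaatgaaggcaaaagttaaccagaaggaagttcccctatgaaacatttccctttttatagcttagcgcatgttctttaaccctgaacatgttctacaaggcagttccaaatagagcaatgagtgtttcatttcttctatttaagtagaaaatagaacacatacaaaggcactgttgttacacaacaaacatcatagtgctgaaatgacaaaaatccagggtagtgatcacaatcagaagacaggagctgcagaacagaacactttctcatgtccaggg
P2RY12 downstream promoter, chr3:151340773-151341072, minus strand: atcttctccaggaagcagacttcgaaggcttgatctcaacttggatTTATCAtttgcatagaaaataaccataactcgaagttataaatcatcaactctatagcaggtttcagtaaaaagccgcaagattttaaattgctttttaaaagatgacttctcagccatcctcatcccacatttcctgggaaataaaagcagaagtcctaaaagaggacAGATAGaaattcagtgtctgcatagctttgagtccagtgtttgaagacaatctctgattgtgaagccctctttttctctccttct

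The F2RL3 sequence shown held none of the 4 motifs, nor did that of the upstream P2RY12 promoter, and no sequence outside these 300 bases was searched. The downstream P2RY12 promoter held 2, at -204 and -35 bases from its start, and no probe of P2RY12 read it. Of the other receptors, P2RY1, TBXA2R and ADRA2A had a promoter in the table. None of these held a motif, whereas 25% of 35116 promoters of the same length did. Whether the RefSeq starts of P2RY1, TBXA2R and ADRA2A match those of the array was not checked. The match is a description of these letters in these sequences only. F2R, PTGIR and ADORA2A were not matched. The promoters also differed in base composition. G and C made up 67.3% of the F2RL3 sequence, 72.7% of that of P2RY1, 74.7% of that of TBXA2R and 69.3% of that of ADRA2A, but 38.7% of the upstream and 37.7% of the downstream P2RY12 sequence, against a median of 58.7% over all promoters. The part of base composition in the low intensity and ratio at P2RY12 was not tested.

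TBXA2R, the receptor of thromboxane A2, had its IP-side windows far upstream and none near its start. The highest, at -4529 bp (chr19:3561996-3562371), read 0.76, 2.28 and 1.48 in the direction of transcription, with IP intensities of 5685, 619 and 811 against IgG intensities of 3343, 127 and 289. The probe with the steepest ratio was the one with the dimmest IgG signal. Near the start the 7 probes averaged 0.01, at percentile 27.9. The 1 IgG-side window of TBXA2R, at -1282 bp, had a mean of -1.02 ± 0.13, past the threshold by less than its scanner error.

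ADRA2A, the alpha2A adrenergic receptor through which epinephrine lowers cyclic AMP, had the most IgG-side windows of the 8 genes. There were 8, in a run of 2 at -5162 and -5003 bp and a run of 6 from -3649 to -2307 bp, and the lowest, at -2509 bp (chr10:112824201-112824633), read -1.94, -3.09 and -1.56. IP intensities there were 236, 210 and 172 against IgG intensities of 900, 1786 and 505, with unprocessed IP signals of 382 to 398 against 340 for the negative controls. Downstream of the second run the ratio turned: the highest window, at -1831 bp, read 1.07, 2.01 and 0.80, a mean of 1.29. A pair of IP-side windows at 309 and 448 bp, with a peak of 1.18 ± 0.34, rested on the probes at these positions, whose IP intensities were 146 and 57.7 and whose IgG intensities were 48.2 and 20.3. These are among the dimmest probes of the array, at intensity percentiles 3.09 and 0.73. The mean within 500 bp of the start was 0.84, at percentile 88.1, and it included both of these probes.

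The Gs coupled, inhibitory receptors differed from each other. ADORA2A, the adenosine receptor A2A, had 9 IP-side windows, the most of the 8 genes, but it also had the most windows, 71. For comparison, P2RY1 had 7 IP-side windows of 44 and F2RL3 had 4 of 22. The 4 adjacent windows centered from -4882 to -4526 bp held the highest window of all 8 genes, at -4767 bp (chr22:23148741-23149036), where the probes read 0.67, 2.03 and 2.99. The IP intensities were 1603, 493 and 754 and the IgG intensities 1001, 120 and 94.4. The steepest ratios stood on the probes with the lowest IgG intensities, and the window was at intensity percentile 22.0. The other 5 IP-side windows were not adjacent throughout: 1 at -1819 bp, with a mean of 1.30 ± 0.14, 3 from -1608 to -1276 bp and 1 at -679 bp, with window means down to 0.72 between them. ADORA2A averaged 1.04 over its 9 probes from 2000 to 500 bp upstream, at percentile 95.3 of 14271 genes on both arrays, but 0.27 over the 4 probes within 500 bp of the start. Of its 71 probes, 22 are also annotated to SPECC1L, whose start lies at least 152857 bp away.

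PTGIR, the prostacyclin receptor, had no window past either threshold. Its highest value, 0.80, belonged to a window at the far edge of its probes, near -8772 bp, in which the PTGIR probe itself read -0.21 and a probe not annotated to the gene read 2.03. The highest window centered on a probe of PTGIR was 0.71 at 1490 bp. Around the start the ratio was slightly on the IgG side, with a mean of -0.16 over 4 probes (percentile 18.7) and a lowest window of -0.90 at -677 bp. PTGIR shares 18 of its 32 probes with GNG8, a G protein gamma subunit gene next to it, and the nearest of these lay 813 bp from the start of GNG8.

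**Figure D3:**
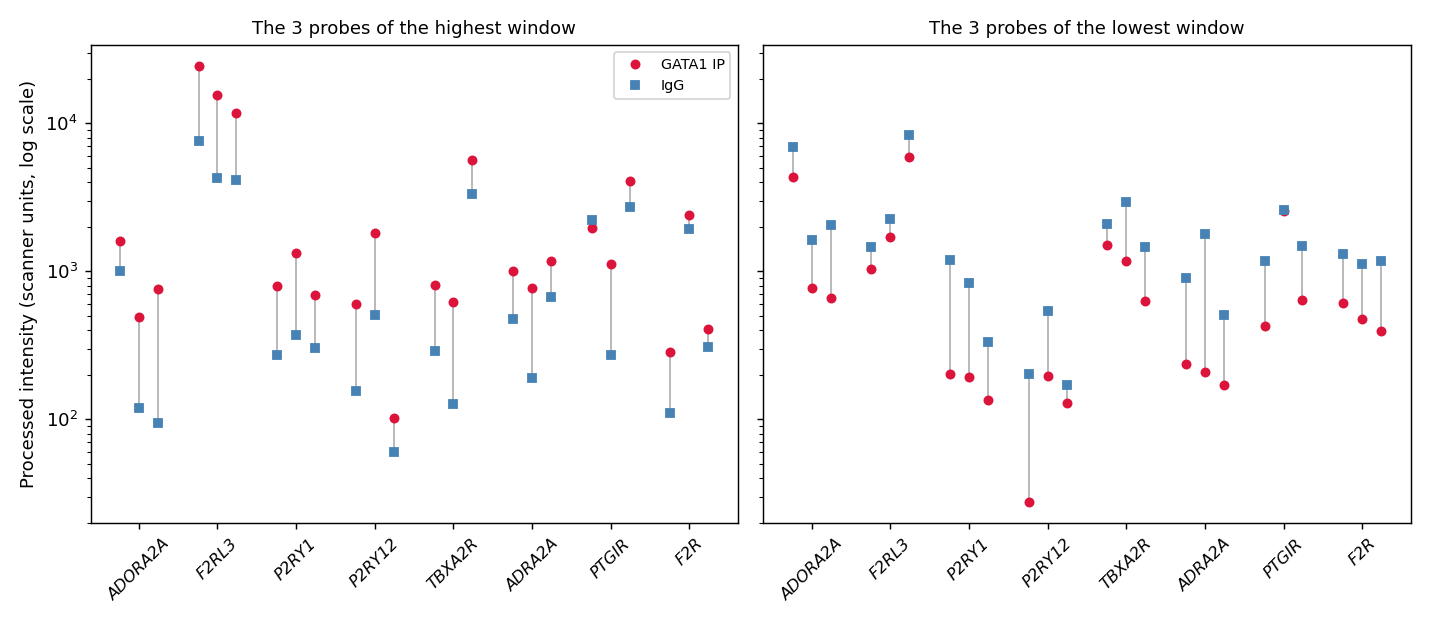
Processed intensity in scanner units, on a log scale, of the 3 probes in the highest (left) and lowest (right) window of each receptor gene. Circles are the GATA1 IP and squares the IgG on the same array, joined for each probe. The lowest IP intensity of the F2RL3 peak, 11689, is above every other IP intensity drawn outside that peak, and at ADORA2A and TBXA2R the widest gaps go with the lowest IgG values.

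Position by position, the 8 genes had no common course. Within 500 bp of the start, 6 of 8 had a mean above 0. The median of the 8 was 0.35, against 0.29 over 16724 genes. The lower quartile over all genes was -0.02, just below 0, so the 6 of 8 lies near the share of all genes. From 4000 to 2000 bp upstream the receptor genes ran from -1.79 at ADRA2A, at percentile 1.48 of 12763 genes, to 1.04 at P2RY1, at percentile 96.2. From 500 to 2000 bp downstream 3 of 8 were above 0, with a median of -0.06. Over 16190 genes the median there was 0.009, so the genes lay about evenly on both sides of 0. Probes near each other read alike at these genes to about the same degree as elsewhere. Across pairs of probes at most 250 bp apart Pearson's r was 0.58 at the receptor genes (294 pairs) and 0.59 over all probes, and at 501 to 1000 bp it was 0.01 and 0.10. Such pairs share an array and overlapping DNA fragments, and r is given as a description.

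The signaling that these receptors feed was described with a list of 40 genes for G proteins, effectors, their regulators and thromboxane synthesis, all with windows. An IP-side window was present at 26 (65%) and an IgG-side window at 18 (45%), against 57.1% and 52.9% of all genes, and the median highest window was 1.11, near the 1.09 of all genes. The highest was 2.47 ± 0.18 at 2615 bp in ADCY6, an adenylyl cyclase that makes cyclic AMP. PRKACA, the catalytic subunit of protein kinase A, followed with 2.07, then GNB1, a G protein beta subunit, with 1.86. PDE3A, a phosphodiesterase that breaks down cyclic AMP, reached 1.78. TBXAS1, which makes thromboxane A2, and GNAS, the Gs alpha subunit, both reached 1.71. These 6 windows lay at intensity percentiles 19.1, 26.1, 67.6, 11.2, 36.5 and 31.8, in the order named. The lowest of the highest windows were 0.23 in PRKCA, a protein kinase C, 0.43 in PIK3CG, a phosphoinositide 3-kinase, and 0.50 in RAP1A, a small GTPase of integrin activation. On the IgG side GNG11, a G protein gamma subunit, read -3.13 ± 0.49 at -2850 bp, on probes at intensity percentile 0.72. PIK3CG read -2.10 and ITPR1, a calcium channel of internal stores, -1.58.

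A second list held 23 other G protein coupled receptors of the same ligand families or known on platelets or megakaryocytes, of which 22 were found on the arrays (ADRA2C was not found). An IP-side window and an IgG-side window were each present at 13 (59.1%), against 57.1% and 52.9% of all genes. The median highest window was 1.34, against 1.09 over all genes. CXCR4, the chemokine receptor that holds megakaryocytes in the marrow, had the highest, 2.93 ± 0.23 at -1285 bp, at intensity percentile 16.0. AVPR1A, a vasopressin receptor, reached 2.24 at 2684 bp, at intensity percentile 15.5. ADORA1, the adenosine receptor A1, reached 1.91, about level with ADORA2A, at intensity percentile 19.8. P2RY13 and P2RY14 came next with the values given above, at intensity percentiles 25.7 and 29.9. The lowest of the highest windows were 0.46 in PTAFR, the receptor of platelet activating factor, 0.50 in LPAR5, a lysophosphatidic acid receptor, and 0.66 in HTR2A, a serotonin receptor. HTR2A, P2RY13 and PTGER4, a prostaglandin E2 receptor, had the lowest IgG-side windows, at -2.13, -1.88 and -1.79. The highest value among the 8 platelet receptors, 1.90, was below that of 4 of these 22 genes.

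**Figure D4:**
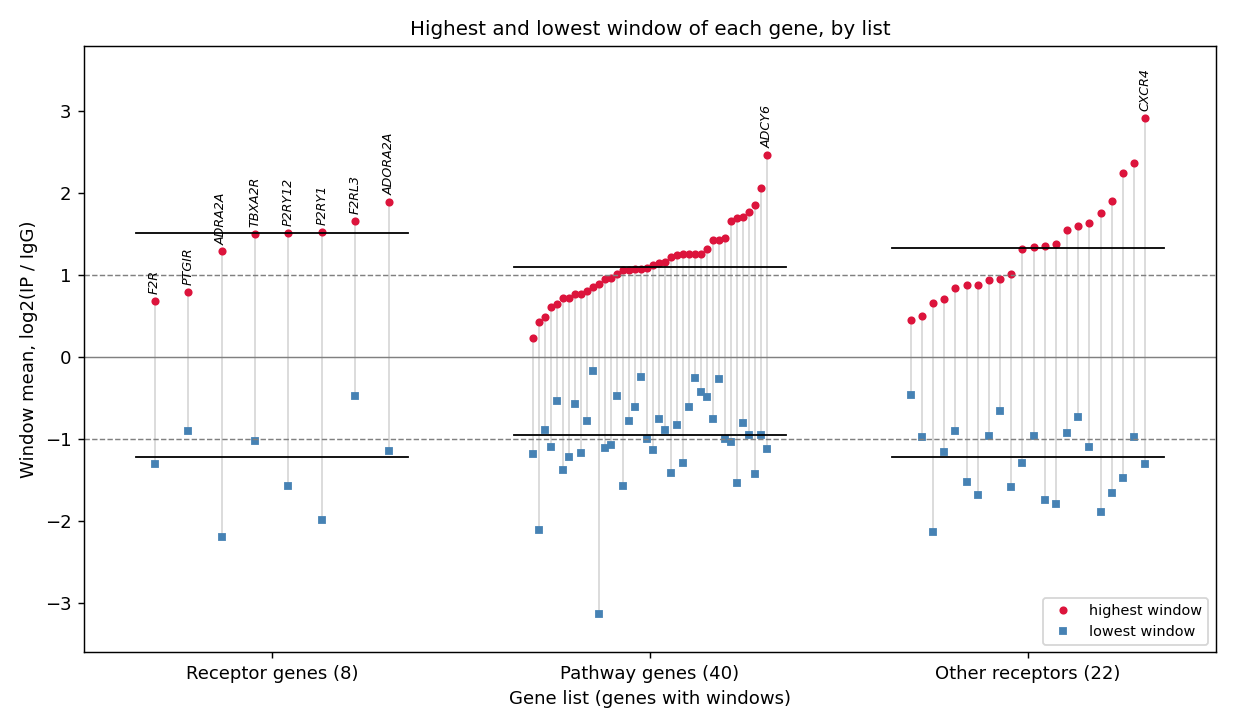
Highest (circles) and lowest (squares) window mean, log2(IP/IgG), of each of the 8 receptor genes, the 40 pathway genes and the 22 other receptors, ordered within a list by the highest window, with black lines at the medians and dashed lines at 1 and -1. The medians of the highest windows are 1.51, 1.11 and 1.34, and the ranges of the lists overlap.

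How far each value depended on the processing differed between the receptors. When unprocessed signals were corrected for local background by normexp, the highest window of F2RL3 read 1.84, whereas that of ADORA2A fell to 1.07 and those of P2RY1, P2RY12, TBXA2R and ADRA2A fell below 1, to 0.96, 0.97, 0.80 and 0.91. Only F2RL3 and ADORA2A then had an IP-side window, against 33.1% of all genes, and only P2RY1 (-1.26) and ADRA2A (-1.45) an IgG-side window, against 23.9%. The same pairs of genes were left at a threshold of 3-fold. A setting added after the values had been seen kept only windows at or above the median intensity of their array. There P2RY1, F2RL3, TBXA2R and ADORA2A still had an IP-side window, with 1.01, 1.67, 1.06 and 1.16. TBXA2R (-1.02) and ADORA2A (-1.14) also kept an IgG-side window, whereas the lowest values of P2RY1, F2R and ADRA2A were -0.56, -0.92 and -0.34. Of the 16038 genes with windows in that setting, 34.8% had an IP-side and 26% an IgG-side window. P2RY12 had no window at or above that intensity.

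**Figure D5:**
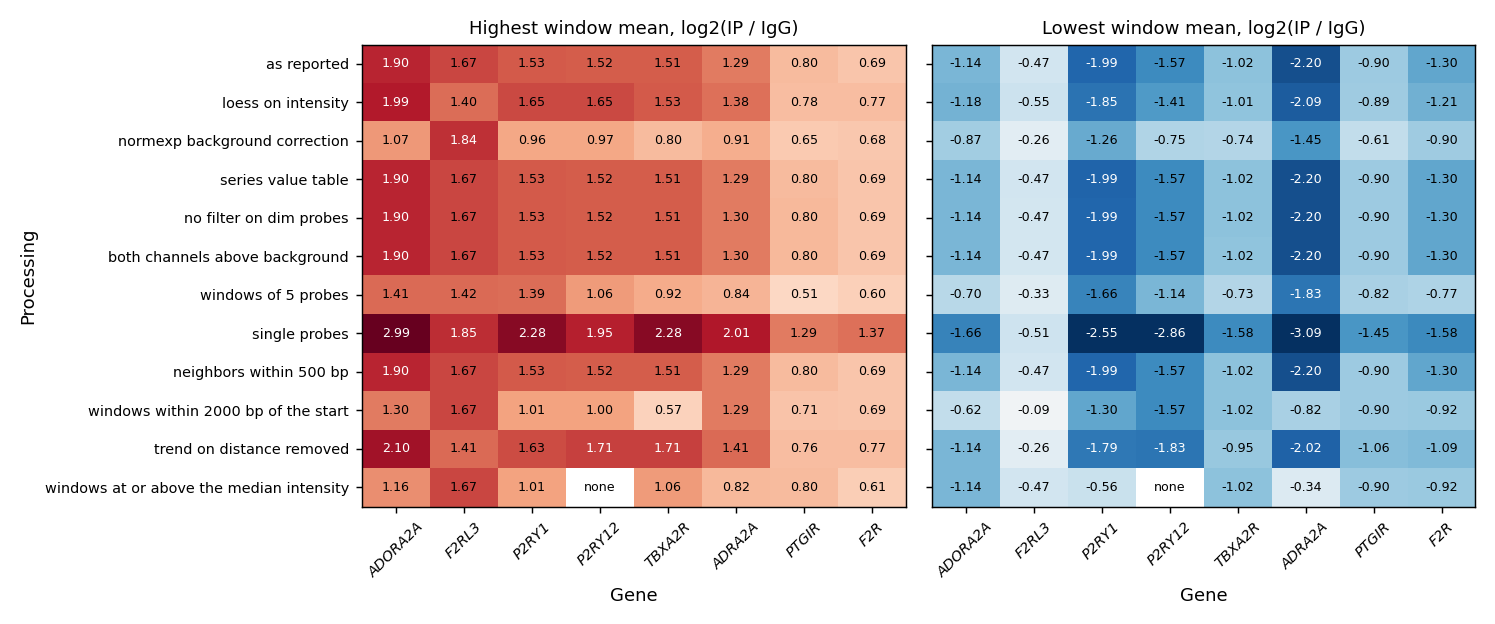
Highest (left) and lowest (right) window mean, log2(IP/IgG), of each receptor gene (columns) under each processing of the same arrays (rows), with "none" where no window was left and color from blue (IgG) to red (IP). F2RL3 stays between 1.40 and 1.85 in every row, whereas ADORA2A runs from 1.07 to 2.99.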

How the data were processed

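GATA1 IP and IgG DNA from Meg-01 cells were compared on 2 arrays with different probes. Per the file headers, the deposited processed intensity values came out of Agilent Feature Extraction 9.5.3.1 after surface subtraction, detrending and a linear dye normalization, while the deposited mean and background intensities were uncorrected. Each deposited log10 ratio sets the IP (Cy5) over the IgG (Cy3). The deposited p-value of each ratio comes from the scanner error model within 1 array and was not used. The series value table, also deposited, repeats these log10 ratios without centering (medians 0 and 0.0016). In the study, lowess and median normalization and commercial peak calling followed, which were not used here.

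Here log2(IP/IgG) of the processed intensities was set to a median of 0 on each array, from deposited intensities. Control spots, non-uniformity outliers and probes that rose well above background on neither channel were dropped. Windows held 3 adjacent probes with neighbors within 1000 bp of the center. The highest and the lowest window holding a probe of a gene gave its values. The receptor genes, the lists and the alternatives were chosen with earlier results of these data known. Genes named are the 8 receptors, genes sharing their probes, and, of each list, the 6 highest, the 3 lowest by highest window and the 3 lowest by lowest window. A gene that this rule names among the other receptors is not reported here. Receptors within 200000 bp of one of the 8 were also named. Promoters shown are those with the highest and lowest mean within 500 bp of the start. Precision is limited by the number of arrays. The steps were tested on simulated data with planted regions, in which the noise was narrower than on these arrays and independent between probes. That check does not cover the share of genes called here. Python 3.11.15 (numpy 2.4.6, pandas 2.3.3, matplotlib 3.10.9) and R 4.3.3 (limma 3.58.1) were used. The alternatives were loess on intensity (span 0.3), normexp (offset 50), the series value table, other filters on dim probes, single probes and windows of 5, thresholds of 1.5-fold and 3-fold, neighbors within 500 bp, windows within 2000 bp of the start, and removal of the trend on distance in steps of 500 bp out to 6000 bp. Bright windows only was added later.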

Additional observations from a re-analysis of the deposited data

How the results depend on the processing

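No paired analysis was possible because chIP1 and chIP2 carry different probes and no test was run. With 1 hybridization per probe, no replicate could be left out. Of the highest windows under the alternatives, 87 kept their side of the threshold, 12 fell below it and 4 came to pass it, and of the lowest windows 82, 18 and 3 did so. The median highest window of the 8 genes, 1.51, was 0.93 with normexp and 0.99 with windows of 5 probes, against 0.83 and 0.81 over all genes. The 6 receptor genes with an IP-side window became 2 with normexp, 4 with windows of 5 probes, and 8 with single probes and at 1.5-fold. They became 2 at 3-fold, 5 within 2000 bp of the start and 4 among bright windows. The 6 with an IgG-side window became 2 with normexp, 3 with windows of 5 probes, and 7 with single probes and at 1.5-fold. They became 2 at 3-fold, 3 within 2000 bp of the start and 2 among bright windows. For the pathway genes and the other receptors, only counts that changed by more than a factor of 1.5 are given. The 26 pathway genes with an IP-side window became 15 with windows of 5 probes and 7 at 3-fold. The 18 with an IgG-side window became 6 with normexp, 8 with windows of 5 probes, 36 with single probes, 31 at 1.5-fold, 2 at 3-fold, 7 within 2000 bp and 6 among bright windows. The 13 other receptors with an IP-side window became 21 with single probes, 20 at 1.5-fold and 7 at 3-fold. The 13 with an IgG-side window became 7 with normexp, 5 with windows of 5 probes, 21 at 1.5-fold, 7 at 3-fold and 7 among bright windows. The share of all genes moved with these settings. On the IP side it went from 57.1% to 33.1% with normexp, 34.1% with windows of 5 probes, 86.1% with single probes, 85% at 1.5-fold, 20.6% at 3-fold and 34.8% among bright windows. Within 2000 bp of the start it was 43.6% on that side. On the IgG side it went from 52.9% to 23.9%, 33.5%, 81.1%, 78.4%, 22.3% and 26% in the same order, and to 32.6% within 2000 bp of the start. At other thresholds the direction of the change follows from the rule itself. Within 2000 bp and among bright windows only some of the windows are read, so a count of genes can only stay or fall. For the other settings the cause was not tested. P2RY12 had no window at or above the median intensity, so it was not measured in that setting.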
